A study of Mus musculus with 15 samples.

Results

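The 8 wild-type (WT) libraries of mouse distal jejunum were divided by the level of Dbp, a transcript that rises and falls over the day under control of the circadian clock. Libraries with more than 300 normalised counts of Dbp were called high and libraries with fewer than 150 were called low. This gave 4 high and 4 low libraries, 2 of each on each diet, with no WT library between the thresholds, out of 15 libraries in the series. The 7 libraries from knockout (KO) mice were not used to form the split. Nearest to the thresholds, WT ezetimibe replicate 3 stood at 415 on the high side and WT control replicate 4 at 120.2 on the low side. Since a measured value set the groups, every difference between high and low WT libraries below is a description without a test, and clock genes differ by construction.

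The mice were C57BL/6 males, 13 to 15 weeks old, and all ate a diet with 0.08% cholesterol. In 2 of the 4 groups it also held 0.01% ezetimibe, which inhibits the intestinal sterol importer NPC1L1. The KO mice lacked Aster-B and Aster-C, which move cholesterol inside cells, in every tissue. The groups were WT control (n = 4), WT ezetimibe (n = 4), KO control (n = 3) and KO ezetimibe (n = 4). No label used here gives the hour at which tissue was taken, or a cage, litter or day, so the phase of the clock in each animal is not known from the labels. Bulk RNA of whole frozen tissue was sequenced, and in such samples fewer cells of a type and less RNA per cell cannot be told apart.

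The circadian clock is a feedback loop in which ARNTL (also called BMAL) and CLOCK switch on genes through E-boxes, and the PER and CRY proteins they induce switch them off again. A second loop runs through the repressors NR1D1 and NR1D2 and the activators of the ROR family, which act on Arntl. Dbp, Tef and Hlf are clock-driven transcription factors of the PAR bZIP family that bind D-boxes, and in mouse intestine, liver and kidney they are known as regulators of enzymes and transporters that handle drugs.

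Recovered reads numbered 13855034 to 19307079 per library. Log2 levels of pairs of WT libraries correlated across genes with r between 0.966 and 0.988. The first principal component of the WT libraries held 33.4% of the variance and the second 21.3%. High and low libraries overlapped on the first, from −32.6 to 20.5 against −4.46 to 44.3. On the second component the high libraries reached from −33.2 to 15.8 and the low ones from 1.89 to 22.8. None of 12 enterocyte markers was at 0 throughout the WT libraries, and their sum lay between 759822 and 1009580 normalised counts. The 8 Paneth cell markers summed to between 10169 and 72283.

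The clock genes show how the libraries were divided. Dbp itself (chromosome 7, 45705088 to 45710203, plus strand) had 867, 764, 911 and 415 normalised counts in the high libraries, listed here and throughout as WT control replicates 1 and 2 and WT ezetimibe replicates 1 and 3. In the low libraries, listed as WT control replicates 3 and 4 and WT ezetimibe replicates 2 and 4, it had 49.5, 120.2, 41.3 and 91.0. The lowest high library thus lay well above the highest low one, and WT ezetimibe replicate 3 was the mildest of the high libraries. Per3, a member of the negative arm of the clock, had 402, 469.5, 433 and 217 in the high libraries and 55.6, 68.3, 38.5 and 47.4 in the low ones, a log2 difference of 2.81 ± 0.202 (SE). Tef had 2042, 1720.1, 2026 and 1367 against 627, 631, 490.2 and 682 (1.55 ± 0.140). Nr1d2 had 1889, 1778, 2005 and 1154 against 968, 795, 542 and 801 (1.13 ± 0.176).

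Arntl, of the positive arm, and the repressor gene Cry1 pointed the other way. Arntl had 183, 109.9, 155 and 242 normalised counts in the high libraries and 476, 298, 555 and 512 in the low ones, a log2 difference of −1.43 ± 0.206 (SE). Cry1, which peaks late among the repressors, had 558, 445, 527 and 558 against 851, 724, 809 and 728 (−0.58 ± 0.101). For each of these clock genes the high and low libraries did not overlap. Of 32 clock genes listed, 31 were in the table and 30 were tested. With limma (adjusted p under 0.05 over all genes) 9 were past the threshold, among them Dbp, which set the groups. The others were Per3, Per1, Tef, Hlf, Nr1d2 and Usp2, higher, and Arntl and Cry1, lower in the high libraries. Of all 13844 genes 1.36% were past it. No excess of clock genes is read from this, since they differ by construction. Clock, the partner of Arntl, was level at a log2 difference of −0.02.

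**Figure D1:**
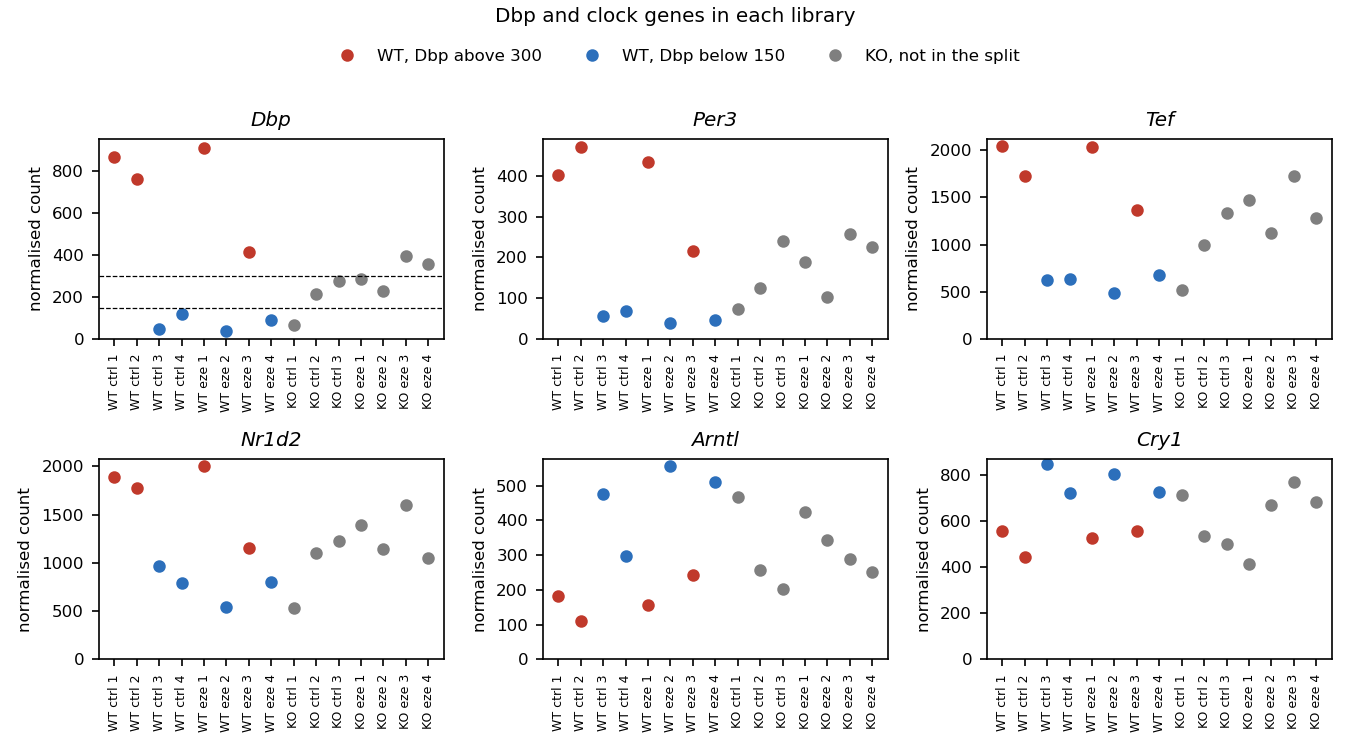
Normalised counts (vertical axes) of Dbp and 5 clock genes in each of the 15 libraries (horizontal axes), with WT libraries above 300 normalised counts of Dbp in red, those below 150 in blue and KO libraries in grey, and the 2 thresholds dashed. Per3, Tef and Nr1d2 were higher in the 4 high than in the 4 low WT libraries, Arntl and Cry1 were lower, and 6 of the 7 KO libraries had between 215 and 398 normalised counts of Dbp.

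Promoter sequences are shown for 1 clock gene and for 3 genes outside the clock, picked because their start regions hold a match to a motif below. Each is the 250 bases before the start of the gene, from RefSeq on GRCm38.p6 (the assembly also called mm10), with motif matches in capitals. Motifs were searched on both strands, as CACGTG (E-box), TTATGTAA or TTACGTAA (D-box), TAGGTCA or TGGGTCA (ROR element) and TGATGNAAN (amino acid response element). Among 32851 windows of this length, 6.02% held the E-box, 0.932% the D-box, 5.38% the ROR element and 3.44% the amino acid response element.
Per3 (chr4:151044666-151044915, minus strand), 2 D-boxes: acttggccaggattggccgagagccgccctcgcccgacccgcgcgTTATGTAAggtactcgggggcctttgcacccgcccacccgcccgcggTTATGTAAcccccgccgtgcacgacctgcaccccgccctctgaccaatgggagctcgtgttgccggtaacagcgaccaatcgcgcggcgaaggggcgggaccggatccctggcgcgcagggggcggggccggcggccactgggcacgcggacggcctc
Chac1 (chr2:119350992-119351241, plus strand), amino acid response element read on the other strand: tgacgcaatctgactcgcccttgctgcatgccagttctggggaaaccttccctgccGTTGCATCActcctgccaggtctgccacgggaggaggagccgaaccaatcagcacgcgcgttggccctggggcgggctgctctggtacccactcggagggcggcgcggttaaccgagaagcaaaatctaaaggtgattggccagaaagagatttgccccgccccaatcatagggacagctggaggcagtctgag
Bnip3 (chr7:138909507-138909756, minus strand), E-box: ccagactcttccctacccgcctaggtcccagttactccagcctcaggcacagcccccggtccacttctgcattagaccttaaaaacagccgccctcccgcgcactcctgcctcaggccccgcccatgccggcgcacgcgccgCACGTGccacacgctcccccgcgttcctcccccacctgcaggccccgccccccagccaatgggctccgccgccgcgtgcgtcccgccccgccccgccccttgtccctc
Slc39a8 (chr3:135825407-135825656, plus strand, one of its listed starts), E-box: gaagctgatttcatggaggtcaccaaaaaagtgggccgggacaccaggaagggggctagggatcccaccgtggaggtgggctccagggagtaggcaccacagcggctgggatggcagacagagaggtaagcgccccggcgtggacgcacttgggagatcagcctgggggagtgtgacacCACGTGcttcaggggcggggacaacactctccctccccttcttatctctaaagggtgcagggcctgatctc
The matches of Per3 lay 205 and 158 bases before the start, that of Chac1 194, that of Bnip3 108 and that of Slc39a8 71, and none overlapped another. Windows were at hand for 22 of the 30 leading genes described next, and 3 of these held any match (Chac1, Bnip3 and 1 of several starts of Sgk1). The other listed start of Slc39a8 held none. Of the other clock genes past the threshold, Tef, Cry1 and a start of Per1 held an E-box. The windows of Dbp, Arntl, Nr1d2, Hlf and Usp2 held no match. The share of all windows with any of these motifs was not counted. A match is a description of the letters and not a site shown to be used.

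Outside the clock, the high WT libraries had more transcript of the drug pump gene Abcb1a and of several conjugating and steroid enzymes (Ugt2b5, Gsta3, Hsd3b3). They had less of Chac1 and Slc7a5, which respond to amino acid shortage, of the inducible heat shock genes Hspa1a and Hspa1b, and of Angptl4 and Areg, which encode secreted signals. With limma, 132 genes outside the clock lists were past an adjusted p of 0.05 on the higher side and 47 on the lower side (179 in all). Over all 13844 genes tested, 1.00% were past it on the higher and 0.354% on the lower side, and 17.9% had an unadjusted p under 0.05. These shares are given as background only. In 125 of the 132 and in 46 of the 47 every high library stood beyond every low library, as in 5.99% and 4.05% of all genes tested. The genes were called by this same contrast, so their separation follows from the choice and no excess is read from it. Median log2 differences were 0.659 and −0.809. The number of genes moved when single libraries were left out, and why was not tested. It was 12, 20, 8, 52 and 7 without WT control replicates 1 or 4 or WT ezetimibe replicates 1, 2 or 4. Without WT control replicate 2 it was 271. With the replicate number as a block it was 4, in a fit where replicates 1 and 4 are of the same Dbp class on both diets and so carry no information on the split.

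The 15 genes with the largest higher differences, among those with a mean of at least 50 normalised counts, were led by Tns4 (chromosome 11, 99065678 to 99089306, minus strand), an adaptor of cell adhesion sites. It had 1237, 797, 781 and 1105 normalised counts in the high and 324, 314, 202 and 321 in the low libraries, a log2 difference of 1.75 ± 0.184 (SE). The difference was 1.64 on the control diet and 1.86 on ezetimibe. Abcb1a (chromosome 5, 8660077 to 8748575, plus strand) encodes P-glycoprotein, the pump that returns drugs from the enterocyte to the gut lumen. It had 9084, 7076, 5332 and 4392 in the high and 3917, 3150.5, 2266 and 2230.1 in the low libraries (6471 ± 2067 against 2891 ± 806, SD, n = 4 each), a log2 difference of 1.15 ± 0.111 (SE). High and low libraries did not overlap for either gene, and the 2 high control libraries had the most Abcb1a of all 15. Tns4, Abcb1a and Tmem252, named below, were the 3 of 30 leading genes that stayed past the limma threshold in each of 8 fits without 1 WT library.

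Several enzymes of drug and steroid handling were among the higher 15. Hsd3b3, a steroid dehydrogenase, had 353, 336, 237 and 175 normalised counts in the high and 102, 169, 100.5 and 80.8 in the low libraries (1.27 ± 0.176, log2, SE). Cyp2u1, a cytochrome P450 that hydroxylates fatty acids, had 343, 395, 346 and 268 against 103, 205, 129.6 and 123 (1.30 ± 0.193). Ugt2b5, which attaches glucuronic acid to lipophilic compounds, had 321, 375, 313 and 188 against 98.9, 154, 120.2 and 134 (1.21 ± 0.204). In all 3 the high libraries lay above the low ones, with WT ezetimibe replicate 3 the lowest of the high. Gsta3, a glutathione transferase, Akr1c19, an aldo-keto reductase, and Nat8f5, of the NAT8 acetyltransferase family, had log2 differences of 1.17 ± 0.196, 1.20 ± 0.231 and 1.32 ± 0.188 (SE). Hsd3b3, Ugt2b5, Gsta3, Akr1c19 and Nat8f5 belong to families with close copies, between which reads may be shared, and Nat8f5 overlaps Nat8f6 on the same strand.

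The rest of the higher 15 had other roles. Bnip3, a receptor for the removal of mitochondria whose E-box is shown above, had 194, 199.8, 224 and 175 normalised counts in the high and 93.8, 87.6, 98.6 and 100.3 in the low libraries (1.05 ± 0.121, log2, SE). The 7 KO libraries, at 199.6, 276, 242, 194, 195, 218 and 228, all lay above the low WT libraries and overlapped the high ones. Sgk1, a kinase that raises sodium uptake and responds to glucocorticoids, had 4618, 8638, 5637 and 8506 against 2154, 2904, 3888 and 3271 (1.15 ± 0.209). Sesn1, a stress-induced brake on mTOR signalling, had 1319, 1338, 1570.3 and 914 against 662, 551, 648 and 628 (1.02 ± 0.151). Hsf5, of the heat shock factor family, Eno3, an enolase of glycolysis, and Sectm1a, a T cell costimulator, had log2 differences of 1.32 ± 0.231, 1.16 ± 0.203 and 1.21 ± 0.195 (SE). The last was Slc13a2os at 1.07 ± 0.199, which lies opposite Slc13a2, a citrate transporter that was itself past the threshold at 0.59 ± 0.114. Since counting by strand is not stated, these 2 genes could not be told apart.

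The lower side was led by Chac1 and by inducible heat shock genes. Chac1 (chromosome 2, 119351229 to 119354381, plus strand), a glutathione-degrading enzyme switched on by ATF4, had 19.1, 43.6, 63.4 and 41.5 normalised counts in the high and 491, 132, 193 and 254 in the low libraries, a log2 difference of −2.59 ± 0.417 (SE). Slc7a5, which imports large neutral amino acids, had 35.3, 69.9, 34.8 and 30.2 against 146, 159, 103 and 115 (−1.66 ± 0.207). Mthfd2, a folate enzyme of mitochondria, had 82.1, 113, 97.2 and 126 against 246, 356, 262 and 202 (−1.33 ± 0.191). All 3 are known targets of ATF4, and Atf4 itself had 2369, 2228, 3088 and 2698 against 4530.1, 4328, 4259.5 and 3887 (−0.72 ± 0.105). Slc7a11, the cystine importer, had 6.68, 15.4, 9.50 and 17.9 against 29.9, 39.7, 37.6 and 38.1 (−1.56 ± 0.312). High and low libraries were apart in each of these 5 genes, all past the limma threshold for this same contrast. Of all genes tested, 4.05% had every high library below every low one.

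Of the fixed list of 10 amino acid response genes, however, Chac1 and Slc7a11 were past the threshold, both lower. Of all genes tested 0.354% were past it on the lower side, and the list median was −0.0625. Asns, the asparagine synthetase that is a classical member, overlapped between the groups at a log2 difference of −0.24. Trib3 overlapped as well, at −0.04. Of the 10 genes 4 were higher in the high libraries, among them Aldh1l2, a folate enzyme of mitochondria, at 1.14 and Cth, which makes cysteine, at 0.24, both with overlap and not past the threshold. Among 15 genes of endoplasmic reticulum stress and chaperones, Atf4 alone was past it, beside the same 0.354% of all genes, and the median was −0.0414.

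Hspa1a and Hspa1b (chromosome 17, 34969190 to 34972156, minus strand, and 34956436 to 34959238) encode the inducible HSP70 chaperone in 2 nearly identical copies, so their reads may be shared. Hspa1a had 103, 151, 188 and 581 normalised counts in the high and 1079.7, 1672, 885 and 1189 in the low libraries (−2.52 ± 0.416, log2, SE), and Hspa1b 444, 555, 618 and 2151 against 3536, 5192, 2765 and 3687 (−2.29 ± 0.408). WT ezetimibe replicate 3 was the highest of the high libraries in both. Among 12 tested genes of the heat shock and cold response, 11 were lower and the median was −0.481, against −0.0025 for all genes tested. Hspa1a and Hspa1b were past the threshold, beside 0.354% of all genes on the lower side. Hsph1, a co-chaperone, had 1759.9, 2366, 1939.9 and 2517 against 3454, 6090.1, 2869 and 4259.7 and was not past it (−0.91 ± 0.209). Hmox1, the haem-degrading enzyme of the oxidative stress response, had 16.2, 45.4, 28.5 and 14.1 against 85.5, 78.5, 117 and 158 (−2.12 ± 0.367).

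Angptl4, an inhibitor of lipoprotein lipase that is induced by fasting, had 742, 1074, 679 and 1491 normalised counts in the high and 3018, 2868, 2396 and 2482 in the low libraries (−1.50 ± 0.220, log2, SE). Of the 18 tested genes of fasting and the PPARα response it was the 1 gene past the threshold (0.354% of all genes were, on the lower side). The list median was 0.104. Areg, a ligand of the epidermal growth factor receptor, had 747, 1370.4, 1186 and 1214 against 3659, 2373, 2006 and 2235 (−1.18 ± 0.216). Tmem252 (chromosome 19, 24674008 to 24682233, plus strand), a membrane protein, had 47.7, 45.4, 59.1 and 93.4 against 267, 176, 275 and 260.0 (−2.01 ± 0.187). Sh3bp5, a binding partner of the JNK kinase that lies opposite Capn7, had 77.3, 66.3, 85.5 and 112 against 288, 204, 228 and 178 (−1.39 ± 0.195). Phlda1, Xylt1, Glipr2, Plpp3 and Ccnjl completed the lower 15, with log2 differences between −1.39 and −1.06. The lower 15 were chosen by this same contrast, and all had every high library below every low one, beside 4.05% of all genes tested.

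**Figure D2:**
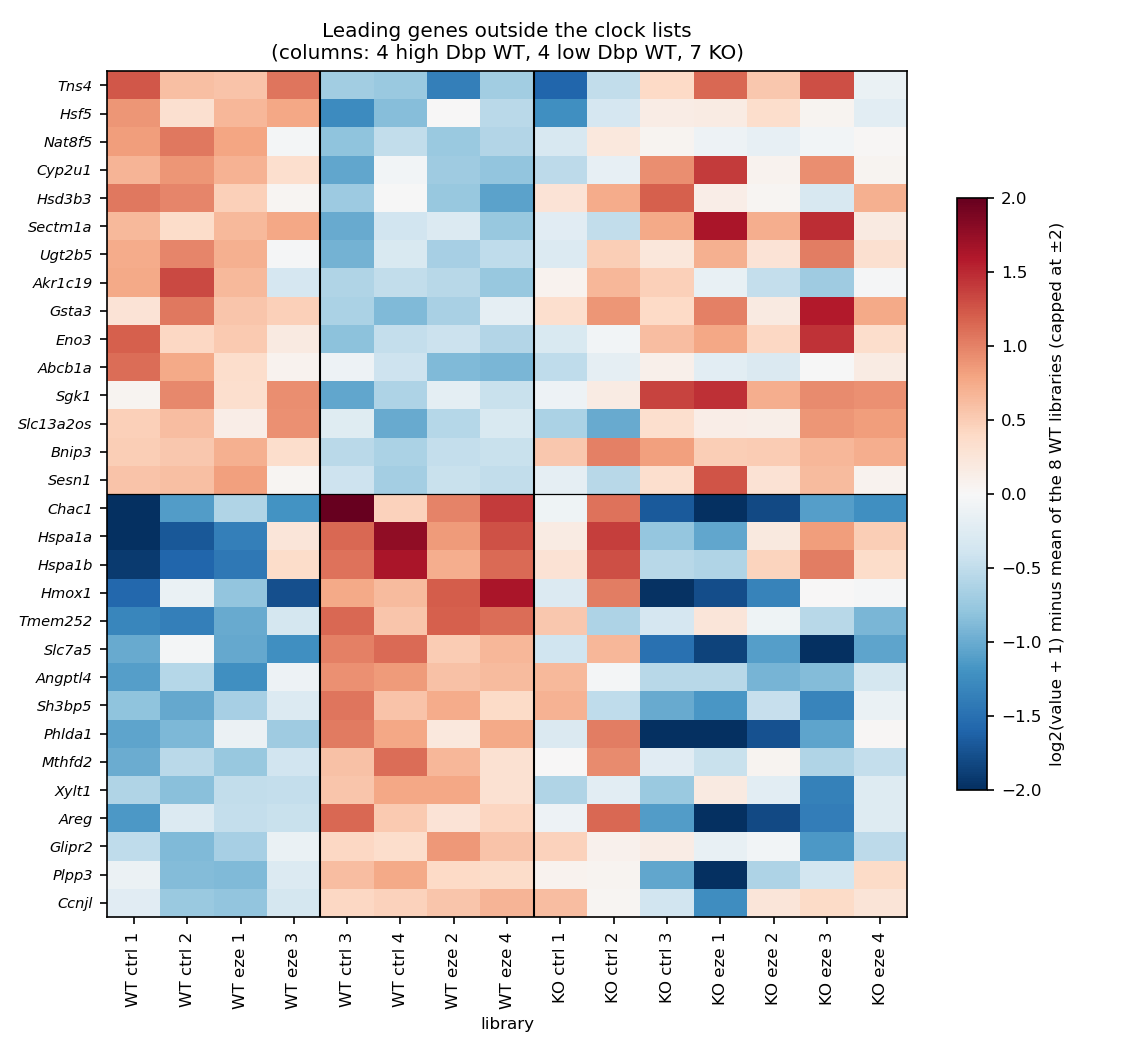
Log2(value + 1) of the 15 highest and 15 lowest differences outside the clock lists (rows), minus the mean of the 8 WT libraries, in the 4 high Dbp WT, 4 low Dbp WT and 7 KO libraries (columns, colour capped at 2 units). The rows were chosen by the contrast between the first 2 blocks, and the KO block was not used for that choice. In the KO block, KO control replicate 2 was the highest library in Chac1, Hspa1a, Hmox1, Slc7a5 and Areg.

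**Figure D3:**
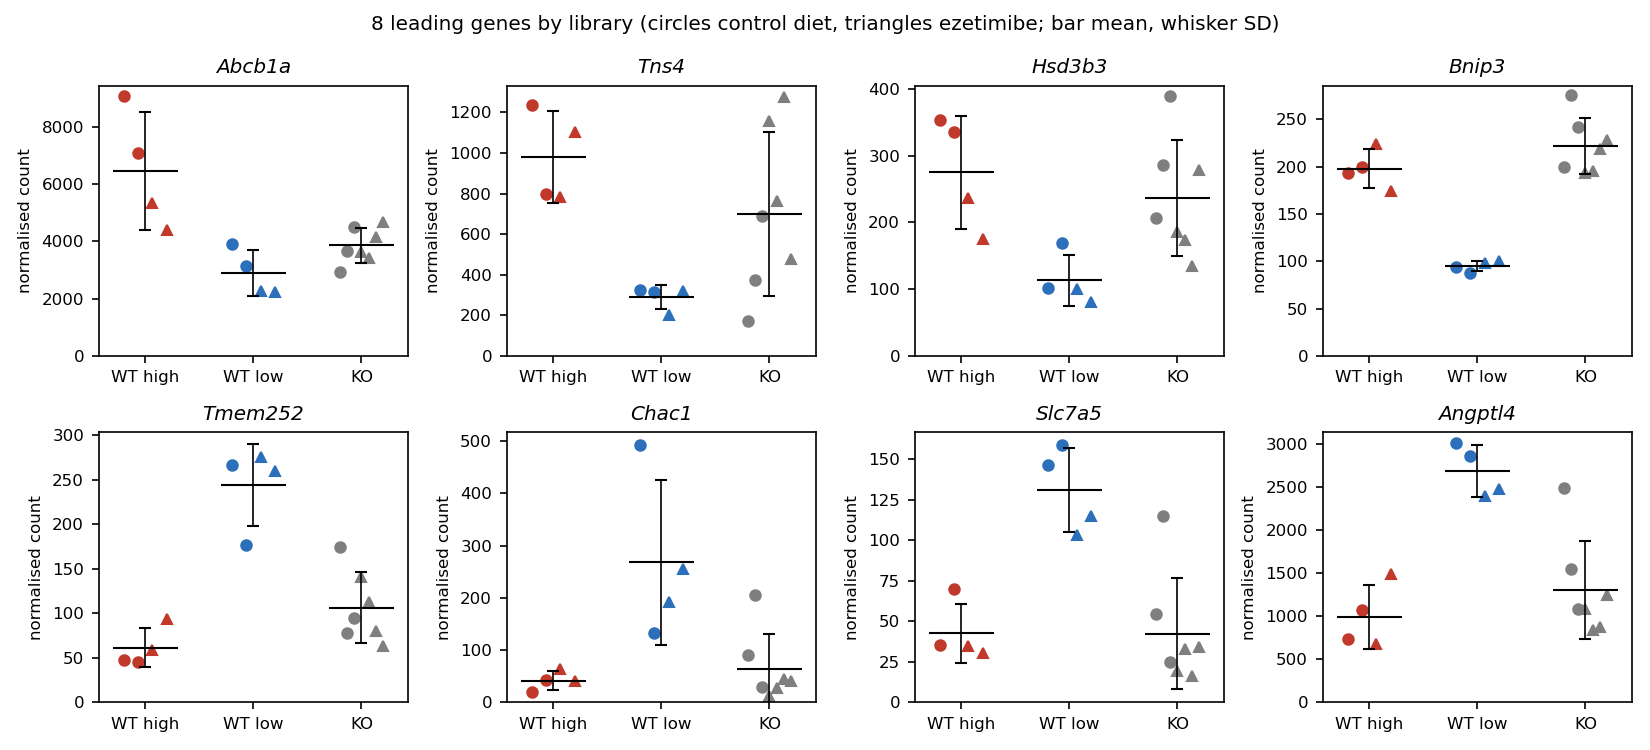
Normalised counts of 8 of the leading genes in the high WT (4 libraries), low WT (4) and KO (7) groups, with 1 point per library, circles for the control diet, triangles for ezetimibe, a bar at the mean and whiskers of 1 SD. Abcb1a ranged from 4392 to 9084 in the high and from 2230.1 to 3917 in the low WT libraries, and Tmem252 from 45.4 to 93.4 and from 176 to 275.

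Described list by list, drug and xenobiotic metabolism lay highest among the pathways outside the clock. Of its 21 tested genes 19 were higher in the high libraries, 7 without overlap of the groups (5.99% of all genes tested), and 3 past the threshold (Abcb1a, Ugt1a1 and Ugt2b34, beside 1.00% of all genes tested), with a median log2 difference of 0.361. Ugt1a1, which conjugates bilirubin, had 532, 509, 469 and 462 normalised counts in the high and 361, 384, 348 and 389 in the low libraries. Cyp3a11, the main drug-oxidising P450 of mouse intestine, overlapped widely, at 9604, 2522, 1342 and 18906 against 21339.8, 13204, 5450.2 and 6431. In the glucocorticoid response list 9 of 11 genes were lower in the high libraries, with a median of −0.562, and the 2 past the threshold lay on opposite sides, Sgk1 higher and Zbtb16 lower. Zbtb16, a transcriptional repressor, had few reads, at 12.4, 0.908, 0 and 0.943 against 43.3, 56.0, 4.70 and 13.0. Of 12 genes of sterol uptake and feedback, Stard4, a carrier of cholesterol in the cytosol, was past the threshold (0.56 ± 0.0769, log2, SE), and the median was 0.0079. None of the 20 cholesterol synthesis genes (median −0.195), 10 LXR targets (0.162) or 14 genes of lipid absorption (0.169) was. Ier2 alone of 13 immediate early genes was past it, lower in the high libraries. For each list here, the share of all genes past it was 1.00% on the higher and 0.354% on the lower side.

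Marker genes of other cells moved with the split in part. All 8 Paneth cell markers were lower in the high libraries (median −0.868) and all 14 proliferation markers were too (median −0.291), with none past the threshold. Summed Paneth cell markers ranged from 10169 to 66080 normalised counts in the high and from 23009 to 72283 in the low libraries. Summed proliferation markers ranged from 2623 to 4273 and from 2930.1 to 5340.1. The 8 stem cell markers had a median of −0.483 and 7 of 8 tested B and plasma cell markers were lower, with a median of −1.07 and sums from 990.5 to 7354 against 1298 to 4377. All 7 MHC class II and all 12 T and NK cell markers were higher, with medians of 0.296 and 0.221, and 11 of 12 enterocyte markers with one of 0.181. No marker of these lists was at 0 in all WT libraries, and their part in the differences above was not tested. With a Paneth cell or a proliferation score as a covariate the number of genes past the threshold outside the clock was 368 (159 higher) or 427 (214 higher).

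**Figure D4:**
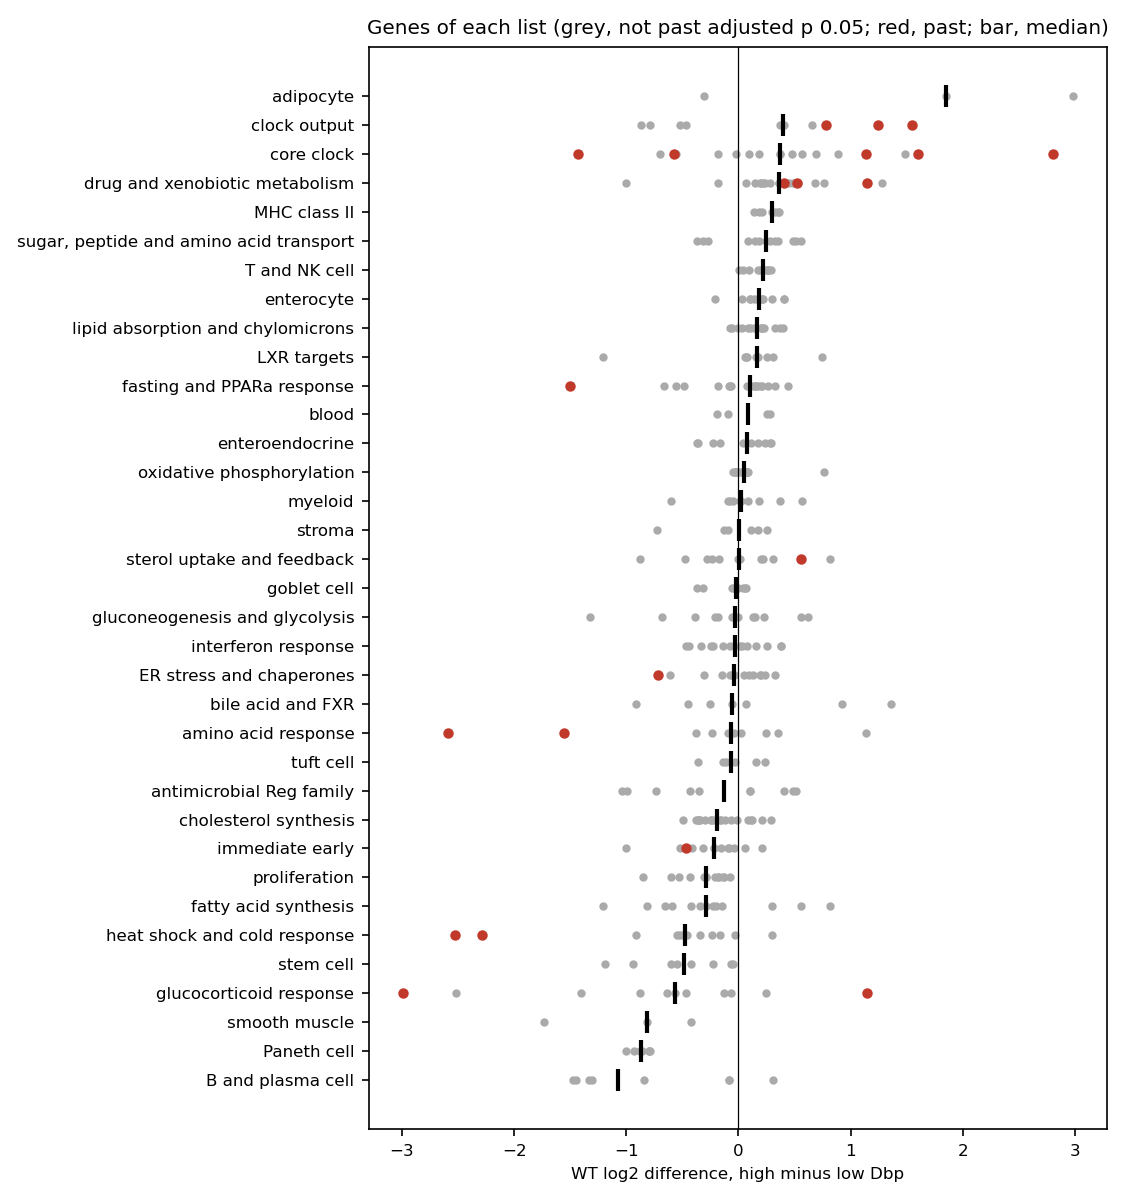
Log2 difference between high and low Dbp WT libraries (horizontal axis) for each tested gene of the lists with 3 or more tested genes (rows, sorted by median), grey where not past adjusted p 0.05 in limma, red where past it, with a black bar at the median; Dbp is left out. Drug and xenobiotic metabolism had a median of 0.361, heat shock −0.481 and Paneth cell markers −0.868.

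The KO libraries, which were not used to form the WT groups or to call the 179 genes, served to ask whether the same genes varied with Dbp there. Their Dbp levels were narrower, at 69.0, 215, 278, 286, 228, 398 and 358 normalised counts in KO control replicates 1 to 3 and KO ezetimibe replicates 1 to 4, so that KO control replicate 1 was the only one within the low range. A slope of each gene's log2 level on log2 Dbp among these 7 libraries was estimated with limma, with each diet at its own mean. The fit held all 15 libraries with a separate slope for WT, so the errors and p-values draw on the spread of the WT libraries as well. No gene of 14298 passed an adjusted p of 0.05 (0%), while 384 (2.69%) had an unadjusted p under 0.05, outside the clock edgeR called 0 and DESeq2 7. Without KO ezetimibe replicate 4 limma called 7 genes outside the clock. The smallest adjusted p was 0.223, shared by Slc39a8 and the clock gene Tef.

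Slc39a8 (chromosome 3, 135825279 to 135888572, plus strand), a zinc and manganese importer whose start region is shown above, had 240.2, 97.7, 72.6, 68.5, 75.0, 42.0 and 70.3 normalised counts in the KO libraries. The highest was the library with the least Dbp and the lowest the library with the most, and the slope was −0.83 ± 0.131 (SE, limma unadjusted p = 1.95e-05). Without KO control replicate 1 it was −0.84 (limma unadjusted p = 0.0259) and without KO control replicate 3 −0.79 (limma unadjusted p = 0.000398). In the WT libraries it had 80.2, 84.5, 62.3 and 82.1 in the high and 148, 141, 122 and 131 in the low group, without overlap (−0.81 ± 0.133, log2, SE). Tef, the D-box factor, had a KO slope of 0.63 ± 0.104 (limma unadjusted p = 3.12e-05), and Per3 one of 0.84 ± 0.190 (limma unadjusted p = 0.000586). Arntl had a slope of −0.58 ± 0.147 (limma unadjusted p = 0.00158), opposite in sign to Tef as in WT.

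Of the 132 genes higher in the high WT libraries outside the clock, 112 had a KO slope above 0 (84.8%, against 49.3% of all genes), and of the 47 lower ones 31 had one below 0 (66.0%, against 50.7%). At an unadjusted p under 0.05 there were 16 and 4 in the same direction and 0 and 0 in the opposite one, beside 2.69% of all genes in either direction. Without KO control replicate 1, the library with the least Dbp, the counts of the same sign were 109 and 29, against 50.3% and 49.7% of all genes. In that fit 4.87% of all genes had an unadjusted p under 0.05, and 8 and 7 of the genes in the same direction did. Without KO control replicate 3 the counts of the same sign were 65 of 132 and 17 of 47, against 49.8% and 50.2% of all genes. Of all genes, 4.53% had an unadjusted limma p under 0.05 in this fit. The shared direction was thus lost when KO control replicate 3 was left out. Whether this came from that library or from the control libraries that remained was not tested. Median slopes went from 0.127 and −0.0844 with all 7 libraries to −0.0034 and 0.141 without KO control replicate 3. With the clock score in place of Dbp the number in the same direction was 117 of 179, against 143 with Dbp. Among the lists, drug and xenobiotic metabolism had a median KO slope of 0.0326, with 14 of 21 genes above 0. The heat shock and cold response had 0.0451 (10 of 13 above 0) and the amino acid response 0.373 (7 of 10), both opposite in sign to their WT medians. Without KO control replicate 1 the 3 medians were 0.110, −0.112 and −0.253.

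Single leading genes differed in how they behaved in KO. Tmem252 had 174, 77.8, 94.2, 141, 113, 80.6 and 62.8 normalised counts in KO and a slope of −0.59 ± 0.176 (limma unadjusted p = 0.00473), which was −0.74 and −0.77 without KO control replicates 1 and 3. Sh3bp5 had a slope of −0.77 ± 0.206 (limma unadjusted p = 0.0024), and −0.55 and −0.67 in those fits. Tns4 had 174, 373, 689, 1159.8, 761, 1275 and 477 and a slope of 0.79 ± 0.273 (limma unadjusted p = 0.012), and 0.49 and 0.56 in those fits. Abcb1a had 2947, 3677, 4500.3, 3627, 3419, 4159 and 4685 and a slope of 0.30 ± 0.125 (limma unadjusted p = 0.03), and 0.53 and 0.26 in those fits. These 4, all with a limma unadjusted p under 0.05 with all 7 libraries, kept their direction whichever of the 2 libraries was left out. Their limma unadjusted p was between 0.107 and 0.481 without KO control replicate 1 and between 0.00274 and 0.128 without KO control replicate 3. Other leading genes changed sign. Without KO control replicate 1, Hsf5 went from 0.48 to −0.23 and Akr1c19 from 0.21 to −0.15. Without KO control replicate 3, Sesn1 went from 0.08 to −0.21 and Sectm1a from 0.27 to −0.10. Ugt2b5, Cyp2u1 and Angptl4 had unadjusted limma p between 0.0336 and 0.0422, with slopes of 0.35, 0.54 and −0.43. Ugt2b5 and Cyp2u1 kept their direction in both reduced fits too, while the slope of Angptl4 was 0.00 ± 0.438 (SE, limma unadjusted p = 0.998) without KO control replicate 1, an error that still allows the value with all 7 libraries, and −0.27 without KO control replicate 3.

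The slopes of the leading heat shock and amino acid genes in KO were small beside their errors with all 7 libraries. Chac1 had 90.9, 204, 29.2, 12.9, 26.8, 44.4 and 40.5 normalised counts there, with a slope of −0.11 ± 0.505 (limma unadjusted p = 0.832) that was 0.84 without KO control replicate 3. Hspa1a had 548, 1279, 285, 237, 559.7, 877 and 687 and a slope of 0.08 ± 0.480 (limma unadjusted p = 0.871), which was 0.84 without that library. KO control replicate 2 was the highest KO library for both genes, and its Dbp, at 215, was above that of KO control replicate 1 alone. Mthfd2 had a slope of −0.03 ± 0.234 (limma unadjusted p = 0.897), which was −1.14 ± 0.481 (limma unadjusted p = 0.034) without KO control replicate 1 and 0.28 without KO control replicate 3. Slc7a5 had one of −0.25 ± 0.356 (limma unadjusted p = 0.488), −1.46 ± 0.814 (limma unadjusted p = 0.0961) and 0.36 in the same fits. The 2 genes thus pointed as in WT in the fit without the library with the least Dbp, and the other way without KO control replicate 3. With all 7 libraries the errors of these genes leave room for slopes of either sign, so a relation there was not detectable rather than absent. In the fit without KO control replicate 1, Mthfd2 was under an unadjusted limma p of 0.05, as were 4.87% of all genes.

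**Figure D5:**
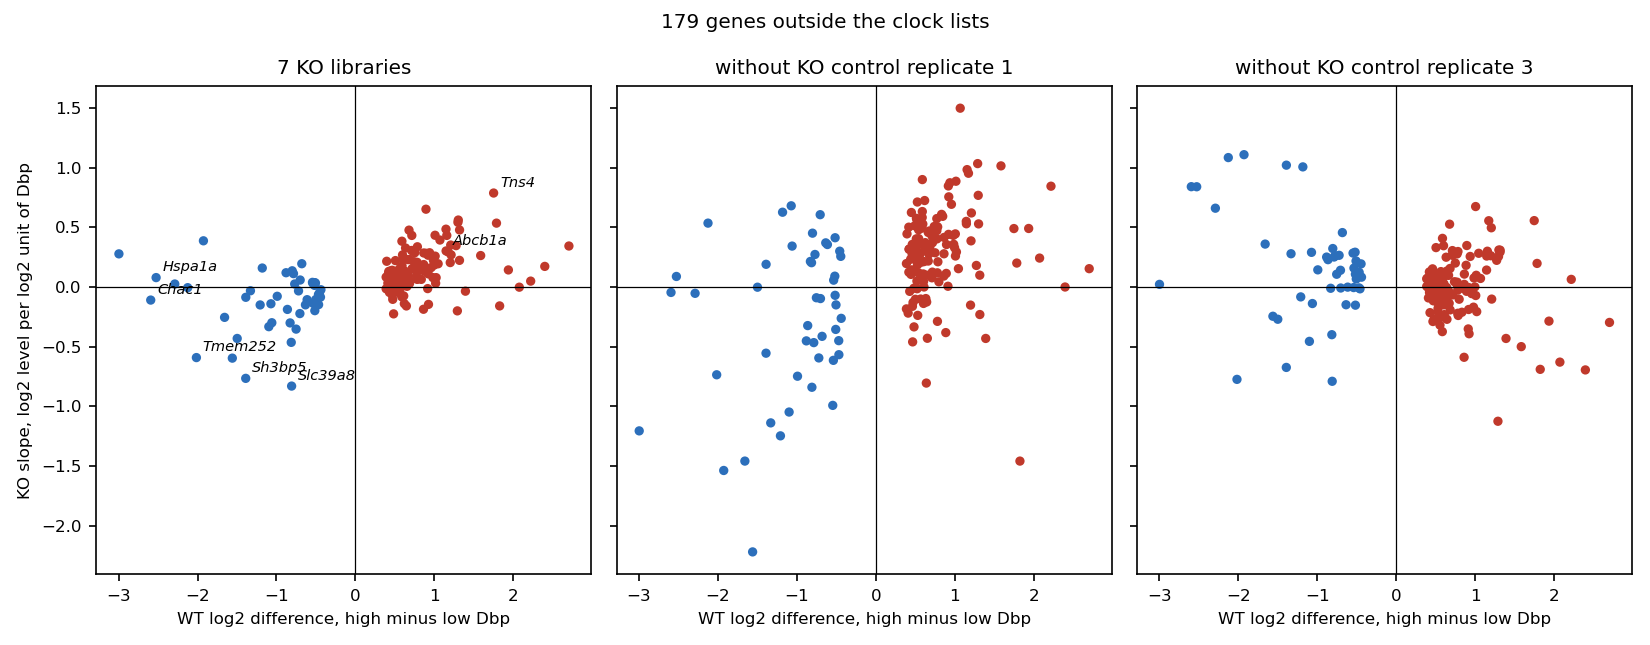
Log2 difference between high and low WT libraries (horizontal axis) against the slope on log2 Dbp among KO libraries (vertical axis, log2 per log2 unit) for the 179 genes outside the clock lists, 132 higher in red and 47 lower in blue, with all 7 KO libraries, without KO control replicate 1 and without KO control replicate 3. With all 7 libraries 112 red points lie above 0 and 31 blue points below it, and without KO control replicate 3 these are 65 and 17.

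Slc39a8 was the 1 gene past the WT threshold among the 15 with the smallest p of the KO slope outside the clock. Another 3 of these, Ces3b, Pigl and Ankrd12, had WT groups without overlap in the direction of their slope, at log2 differences of −1.05, −0.40 and 0.30, with KO slopes of −1.32, −0.40 and 0.31. Every high library stood above every low one in 5.99% of all genes tested in WT, and below in 4.05%. The other 14 also held 6 MHC class II genes, H2-DMb1, Cd74, H2-DMa, H2-Eb1, H2-Aa and H2-Ab1. H2-DMb1, which loads peptides on class II molecules, had 357, 1124, 1275, 1695, 1521, 1932 and 1063 normalised counts in KO and a slope of 0.81 ± 0.155 (limma unadjusted p = 0.000136). KO control replicate 1 was far below the other 6, and without it the slope was 0.07 (limma unadjusted p = 0.821) and the median over the 7 genes fell from 0.745 to 0.0733. Ces3b, a carboxylesterase, had a slope of −1.32 ± 0.273 (limma unadjusted p = 0.000278) and −1.57 without that library.

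The diet comparison in WT was also counted with and without the split, of which 2 high and 2 low libraries stood on each diet. Without the split in the model 36 of 13844 genes differed between ezetimibe and control in WT (0.260%), and with it 62 did (0.448%), 57 higher and 5 lower on ezetimibe. All 36 were among the 62. Only 2 of the 62 were also past the threshold for the split, and Abcb1a, lower on ezetimibe by a log2 difference of −0.69 (limma adjusted p = 0.031), was one of them. With the replicate number as a block the counts were 84 without the split (0.607%) and 135 with it (0.975%), and 35 of the 36 were among the 84. Leaving out single WT libraries moved the unblocked counts to between 4 and 41 without the split and between 8 and 89 with it.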

How the data were processed

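TRIzol RNA from frozen jejunum went into NEBNext Ultra II libraries, per the labels' protocols. The submitters' processing notes name STAR 2.6.0c, FastQC, DESeq2 and mm10, while counter and annotation were not given in the sources used here. Expression was deposited as a signal, counts that the authors normalised with DESeq2, for 26844 genes in 15 libraries. The authors' deposited tables of their own comparisons were not used.

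Dividing by the smallest value above 0 gave whole numbers for 100% of values in each library (tolerance 0.01), so whole reads were recovered. On these reads edgeR 4.0.16 called 175 genes outside the clock in the WT split and DESeq2 1.42.0 called 682. The main fit was limma 3.58.1 (R 4.3.3) on log2(value + 1) with its trend option, for genes with at least 10 normalised counts in at least 3 libraries, adjusted by Benjamini-Hochberg. This scale understates differences of low genes. The WT fit held diet and the split for 8 libraries, and all 15 libraries gave the KO slope, with 1 mean per group and 1 slope per genotype. Called, past the threshold and higher or lower by limma refer to an adjusted p of 0.05. No label says which samples came from separate litters or days, so p-values reflect sample spread, which may be technical, and they do not allow for the choice of groups by Dbp.

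Members and gene lists (36) were chosen with earlier results of these data known, so no list or count here is independent of those results. Named outside the clock were the 15 highest and 15 lowest differences among called genes with a mean of at least 50 and a gene name, up to 4 genes of each list by p, the 15 smallest p of the KO slope, and list members. Other genes were chosen after their values were seen. One clock gene counts in the list totals, was left out of the check for outlying libraries and is not reported here. Of the identifiers, 26825 matched GENCODE M21, the source of coordinates (GRCm38). Scripts were tested on simulated data, and figures were drawn with matplotlib 3.10.9.

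The WT replicate numbers are from the labels. Between same-numbered WT libraries of the 2 diets, deviations from the group means correlated with r = 0.260, 0.102, 0.215 and 0.242 (numbers 1 to 4). In KO the values were −0.242, 0.0696 and 0.0952. Since each WT value was above 0.1, the numbers were taken as a possible pairing and the block was fitted as an alternative. The labels do not say what a number marks, and pairs of unlike number were not compared. Numbers 1 and 4 share a Dbp class on both diets, so a pairing and the split cannot be told apart there.

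Alternatives were pseudocounts of 0.5 and 5, no filter or a stricter one (mean of 50), scaling by TMM or quantiles, robust moderation, edgeR, DESeq2, Paneth cell and proliferation scores as covariates, the replicate block, no diet term, log2 Dbp as a number, all 15 libraries, KO libraries alone, a clock score in place of Dbp, and each library left out. The diet counts with the split or the replicate block, and the count of genes with the same direction in KO, were chosen after seeing the data.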

Additional observations from a re-analysis of the deposited data

Results flagged for a closer look

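Among 118 groups of 4 WT libraries (the leading and the clock genes in the high and in the low libraries), 7 had a library far from the other 3, with a gap, as a share of the range, past Dixon's 95% critical value. Chance gives about 1 in 20 such groups.

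In the low libraries Tns4 was 202 normalised counts in WT ezetimibe replicate 2 and between 314 and 324 in the others (gap 0.920 of the range). Tmem252 was 176 in WT control replicate 4 and between 260.0 and 275 in the others (0.847). Por, the P450 reductase, was 4238 in WT ezetimibe replicate 2 and between 5382 and 5556 in the others (0.868). Bhlhe40, a clock repressor, was 2142 in WT ezetimibe replicate 4 and between 1644 and 1724 in the others (0.841).

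In the high libraries Hspa1b was 2151 in WT ezetimibe replicate 3 and between 444 and 618 in the others (0.898). Usp2, a deubiquitinase of the clock, was 738 in that library and between 969 and 987 in the others (0.928). Slc7a5 was 69.9 in WT control replicate 2 and between 30.2 and 35.3 in the others (0.871).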

How the results depend on the processing

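The 179 genes outside the clock that were past the threshold in WT became 274 with quantile scaling (187 higher), 682 with DESeq2 (403 higher), 368 with a Paneth cell and 427 with a proliferation score as a covariate, 75 with log2 Dbp as a number and 62 with all 15 libraries. Without 1 library the count ranged from 7 to 271. With the replicate number as a block it was 4, in a fit where the split rests on replicates 2 and 3. The block left the KO count at 0 and the same-direction count at 143. Pseudocounts, filters, TMM (182, of which 125 higher), robust moderation, edgeR and no diet term gave 173 to 239. The KO slope count of 0 became 7 with DESeq2 and ranged from 0 to 7 without 1 library. The same-direction count of 143 ranged from 82 to 159 without 1 library. For diet in WT the count of 36 became 62 with the split as a covariate, 84 with the replicate block and 135 with both, and without 1 library ranged from 4 to 41, or from 8 to 89 with the covariate (57, 56 and 19 without WT control replicate 1 or WT ezetimibe replicates 1 or 4). The cause was not tested in any of these. None of the 30 leading genes reversed in any of the 23 alternatives, and 521 of 690 of their values passed. Low counts limit genes such as Zbtb16, and 7 KO libraries with a narrow range of Dbp limit the slopes.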

Other observations

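Other genes past the limma threshold in the WT split, chosen here after their values were seen, add to the picture as a description. Aldh1a1, which makes retinoic acid, had 9569, 7588, 6450.0 and 9012 normalised counts in the high and 3166, 3788, 4162 and 5058 in the low libraries, and Fmo5, a flavin monooxygenase, 7961, 6541, 6872 and 6235 against 4257, 4582, 3775 and 3886. Lrat, which esterifies retinol, had a log2 difference of 0.86 ± 0.137 (SE). Mme, the brush border peptidase neprilysin, had 27192, 22152, 22683 and 21379 against 16077, 11156, 12815 and 12101, and Maoa, which degrades monoamines such as serotonin, 33651, 32262, 29925 and 25444 against 16595, 15781, 19559 and 18335. The KO slope of Maoa was 0.34 ± 0.126 (limma unadjusted p = 0.0179). Slc5a4b, of the sugar cotransporter family, had 6540.1, 5452, 6465 and 7047 against 3903, 3538, 5160.0 and 4006.

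Ereg and Btc, ligands of the epidermal growth factor receptor, were on the lower side. Ereg had 402, 469.5, 295 and 486 normalised counts in the high and 632, 816, 705 and 688 in the low libraries, and Btc 158, 143, 103 and 109 against 242, 265, 183 and 176. Of other ligands of that receptor, Tgfa had a log2 difference of 0.34 and Hbegf one of −0.41, and neither was past the threshold. Nrg4, a ligand of the related receptor ERBB4, was on the higher side with 60.2, 57.2, 57.0 and 61.3 against 31.9, 30.6, 31.9 and 28.8, and it overlaps Fbxo22 on the opposite strand. Gdf15, a hormone released under cell stress, had 12.4, 19.1, 26.4 and 7.55 against 71.1, 43.8, 57.3 and 68.7, and Slc7a1, which imports arginine and lysine, 222, 316, 305 and 325 against 450.2, 709, 624 and 548. In KO the highest Gdf15 was in KO control replicate 2, at 85.1 against 7.01 to 19.2 in the other 6 libraries.

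The Fabp4 marker of adipocytes had 5.73, 163, 133 and 21.7 normalised counts in the high and 4.12, 9.17, 1.88 and 4.64 in the low libraries, with overlap, and was not past the threshold. Of the 7 adipocyte markers 3 were tested. Cfd was higher too (log2 difference 1.86) and Cidec was lower (−0.30), neither past the threshold. The 7 markers summed to between 2760 and 4154 normalised counts in the high and between 3190 and 4076 in the low libraries. A sum gives most weight to abundant markers. The mean log2 level of the 7 was 4.92, 8.29, 8.11 and 6.50 in the high and 5.12, 5.85, 4.90 and 5.90 in the low libraries, with overlap.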
